A study of Mus musculus with 16 samples.

Results

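The genes described here encode cytokines and receptor chains of the common gamma-chain family. They comprise the ligands Il7 and Il15 and the receptor chains Il2rg, Il2ra, Il2rb, Il4ra, Il7r, Il15ra and Il21r. A probe set was taken when the platform annotation gave exactly 1 of these symbols, and for each gene the probe set with the highest mean over all 16 arrays stood for it. Of the 9 genes, 8 had such a probe set (15 probe sets in all) among 18194 genes on the array, and 5 of them were among the 12087 genes tested. Il2ra, Il2rb and Il21r were measured but exceeded the log2 filter of 4 on no array, and Il2rg, the common gamma chain itself, is not analysed here.

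Microarrays profiled the back skin of female C57/B6 mice before treatment and on day 5, after topical drug or vehicle had been applied once a day for 4 days. The groups were Day 5 Tofacitinib (mice 7, 8 and 9), Day 5 Ruxolitinib (mice 4 and 6), Day 5 DMSO (mice 2 and 3), which received the solvent of the drugs alone, and Day 0 (mice 1 to 9, untreated, at 8.5 weeks of age). All mice were of 1 strain and sex with no allele named, and the 7 day-5 mice had each given a day-0 biopsy. No drug concentration is stated in the labels. Mouse 7 counts as a tofacitinib mouse by its title, source and treatment fields, although its free-text description gives ruxolitinib. Sample titles write C57/B7 where the other fields write C57/B6. No untreated skin was sampled on day 5, so the day, the earlier biopsy, daily handling and the solvent cannot be told apart in any comparison with Day 0.

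The common gamma chain is the shared subunit of the receptors for IL-2, IL-4, IL-7, IL-9, IL-15 and IL-21, and each receptor adds chains of its own that give it its ligand. Inside the cell, the common chain carries the kinase JAK3 and its partner chains carry JAK1, which phosphorylate STAT5, STAT6 or STAT3 according to the cytokine. Tofacitinib blocks chiefly JAK3 and JAK1, and ruxolitinib blocks JAK1 and JAK2. In skin, keratinocytes and hair follicles make IL-7 and IL-15, which sustain the resident T cells.

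Array medians lay between 3.75 and 3.94 on the log2 scale, and 27 control probe sets with no target in mouse had a highest value of 2.43. All 8 keratinocyte markers passed the filter. The day-0 arrays of mice 1, 3, 8 and 9 stood apart from the other day-0 arrays on the first principal component, which held 65.5% of the variance (scores of -76.2 to -55.1, against -34.9 to -18.7). All comparisons with Day 0 share the same 9 day-0 arrays. In whole skin, fewer cells of a type and less RNA per cell cannot be told apart.

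Of the 5 genes tested, the ligand Il7 and the receptor chains Il4ra and Il15ra were lower than Day 0 in all 3 day-5 groups, vehicle included. Il15 and Il7r did not pass the test in any of them. None of the 5 passed between an inhibitor and vehicle or between the inhibitors. The plot of levels on each array shows all 8 measured genes.

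**Figure D1:**
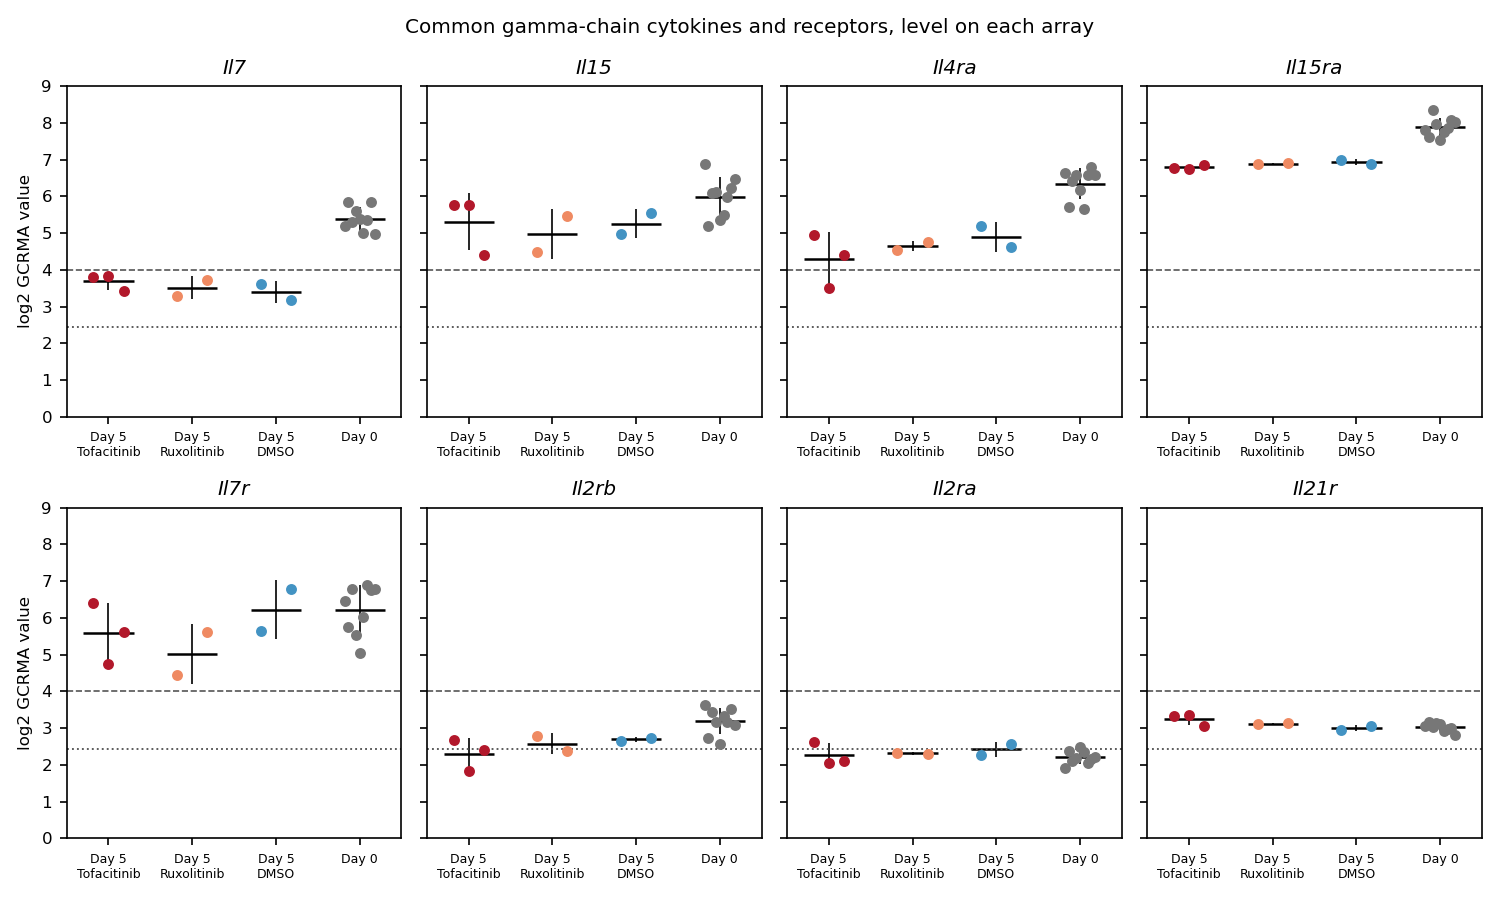
Log2 GCRMA value of each measured gene (vertical axis) on every array of the Day 5 Tofacitinib, Day 5 Ruxolitinib, Day 5 DMSO and Day 0 groups. Points are arrays, horizontal bars group means and vertical bars SDs. The dashed line marks the filter at 4 and the dotted line the highest control value, 2.43. The 7 day-5 arrays of Il7, Il4ra and Il15ra lie below all 9 day-0 arrays, while Il2ra, Il2rb and Il21r stay under the dashed line on every array.

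Among the ligands, Il7 (Entrez gene 16196, probe set 1436861_at) encodes a survival factor of T cells. It read 3.80, 3.83 and 3.43 in tofacitinib skin (mice 7, 8 and 9), 3.30 and 3.73 in ruxolitinib skin (mice 4 and 6), 3.62 and 3.18 in DMSO skin (mice 2 and 3), and between 4.98 and 5.85 with a median of 5.36 at Day 0. Every day-5 array was therefore below every day-0 array, and the 3 day-5 groups overlapped one another. Group means were 3.69 ± 0.23 (SD, n = 3) with tofacitinib, 3.52 ± 0.31 (n = 2) with ruxolitinib, 3.40 ± 0.30 (n = 2) with DMSO and 5.39 ± 0.32 (n = 9) at Day 0. Il7 fell by 1.70 ± 0.19 on the log2 scale with tofacitinib (SE; limma, adjusted p = 9.63e-06), by 1.86 ± 0.22 with ruxolitinib (adjusted p = 3.99e-05) and by 2.01 ± 0.22 with DMSO (adjusted p = 1.08e-05). These are levels 3.26-fold below Day 0 with tofacitinib, 3.64-fold with ruxolitinib and 4.02-fold with DMSO. Il7 exceeded the filter of 4 on the 9 day-0 arrays and on 0 of the 7 day-5 arrays. It was thus tested only because of its day-0 level, which favoured a lower call. A second Il7 probe set, 1422080_at, was dim, with 2 of 7 day-5 arrays above the highest control value against 8 of 9 day-0 arrays. Its day-5 means of 2.29 with tofacitinib, 2.09 with ruxolitinib and 2.27 with DMSO lay under that value, against 2.89 at Day 0, so it measured no size of the difference.

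Il15 (Entrez gene 16168, probe set 1418219_at) encodes the cytokine that sustains natural killer cells and memory and epidermal T cells, and is shown to them on the IL-15 receptor alpha chain. Its values were 5.76, 5.77 and 4.40 in tofacitinib skin, 4.49 and 5.46 in ruxolitinib skin, 4.98 and 5.53 in DMSO skin, and between 5.20 and 6.86 with a median of 6.10 at Day 0. The day-5 and day-0 arrays overlapped, and mouse 9 with tofacitinib and mouse 4 with ruxolitinib were the lowest. Group means were 5.31 ± 0.79 (SD, n = 3) with tofacitinib, 4.97 ± 0.69 (n = 2) with ruxolitinib, 5.26 ± 0.39 (n = 2) with DMSO and 5.98 ± 0.54 (n = 9) at Day 0. The differences from Day 0 were -0.70 ± 0.36 with tofacitinib (adjusted p = 0.116), -0.99 ± 0.42 with ruxolitinib (adjusted p = 0.0817) and -0.69 ± 0.42 with DMSO (adjusted p = 0.180), none of which passed the limma test. Single arrays decided these sizes: the difference was -0.22 without tofacitinib mouse 9, -0.44 without ruxolitinib mouse 4, -1.51 without ruxolitinib mouse 6 and -0.45 without DMSO mouse 2.

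Among the receptor chains, Il4ra (Entrez gene 16190, probe set 1421034_a_at) encodes the alpha chain that binds IL-4, and joins either the common gamma chain or the IL-13 receptor chain encoded by Il13ra1. Il4ra read 4.95, 3.51 and 4.41 in tofacitinib skin, 4.54 and 4.75 in ruxolitinib skin, 5.18 and 4.61 in DMSO skin, and between 5.64 and 6.79 with a median of 6.57 at Day 0. All day-5 arrays lay below all day-0 arrays, and the tofacitinib array of mouse 8 was the lowest of the series. Group means were 4.29 ± 0.73 (SD, n = 3) with tofacitinib, 4.64 ± 0.15 (n = 2) with ruxolitinib, 4.90 ± 0.41 (n = 2) with DMSO and 6.34 ± 0.41 (n = 9) at Day 0. Il4ra fell by 2.08 ± 0.29 with tofacitinib (adjusted p = 6.14e-05), by 1.68 ± 0.34 with ruxolitinib (adjusted p = 0.00180) and by 1.42 ± 0.34 with DMSO (adjusted p = 0.00332). With each mouse as a fixed block, which rests on the biopsies shared by the same animal, the call was kept with tofacitinib (-2.36, adjusted p = 0.00657) and lost with ruxolitinib (-1.47, adjusted p = 0.0947) and DMSO (-1.18, adjusted p = 0.102). Without the DMSO array of mouse 3, the DMSO difference was -1.17 (adjusted p = 0.0637), which also missed the threshold.

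Of the other Il4ra probe sets, 1423996_a_at was dim and was lower by a smaller amount, with -0.54 for tofacitinib (adjusted p = 0.00647), -0.63 for ruxolitinib (adjusted p = 0.0108) and -0.56 for DMSO (adjusted p = 0.0133). The third, 1447858_x_at, did not exceed the highest control value on any array. The Il4ra result therefore has its size from 1 of 3 probe sets, and the sizes of the probe sets differ.

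Il15ra (Entrez gene 16169, probe set 1448681_at) encodes the alpha chain that holds IL-15 and presents it to neighbouring cells. It read 6.77, 6.75 and 6.85 in tofacitinib skin, 6.87 and 6.91 in ruxolitinib skin, 6.99 and 6.88 in DMSO skin, and between 7.54 and 8.34 with a median of 7.85 at Day 0. The day-5 arrays formed a narrow band, with group means of 6.79 ± 0.050 (SD, n = 3) for tofacitinib, 6.89 ± 0.028 (n = 2) for ruxolitinib and 6.93 ± 0.078 (n = 2) for DMSO, below the day-0 mean of 7.88 ± 0.24 (n = 9). Il15ra fell by 1.10 ± 0.14 with tofacitinib (adjusted p = 2.80e-05), by 0.99 ± 0.16 with ruxolitinib (adjusted p = 0.000427) and by 0.96 ± 0.16 with DMSO (adjusted p = 0.000323), which are levels 2.14-fold below Day 0 with tofacitinib, 1.98-fold with ruxolitinib and 1.94-fold with DMSO. The second probe set, 1422397_a_at, was lower by similar amounts, at -1.01 with tofacitinib (adjusted p = 0.000235), -0.83 with ruxolitinib (adjusted p = 0.00473) and -0.83 with DMSO (adjusted p = 0.00286). Both Il15ra probe sets thus passed the test in every day-5 group.

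Il7r (Entrez gene 16197, probe set 1448575_at) encodes the IL-7 receptor alpha chain, carried by T cells and innate lymphoid cells, which also pairs with the Crlf2 chain to bind the epithelial cytokine TSLP. It read 6.40, 4.75 and 5.61 in tofacitinib skin, 4.44 and 5.60 in ruxolitinib skin, 5.65 and 6.79 in DMSO skin, and between 5.04 and 6.88 with a median of 6.45 at Day 0. DMSO skin lay inside the day-0 range, and the tofacitinib array of mouse 8 and the ruxolitinib array of mouse 4 lay below it. Its means were 5.59 ± 0.83 (SD, n = 3) with tofacitinib, 5.02 ± 0.82 (n = 2) with ruxolitinib, 6.22 ± 0.80 (n = 2) with DMSO and 6.22 ± 0.66 (n = 9) at Day 0. The difference from Day 0 was -0.70 ± 0.42 with tofacitinib (adjusted p = 0.178), -1.16 ± 0.49 with ruxolitinib (adjusted p = 0.0823) and -0.01 ± 0.49 with DMSO (adjusted p = 0.991). The call of Il7r in tofacitinib skin depended on the fit, since with the mouse as a fixed block the tofacitinib difference was -1.22 ± 0.29 (adjusted p = 0.0172). The same fit gave -0.76 with ruxolitinib (adjusted p = 0.197) and -0.05 with DMSO (adjusted p = 0.931). Without the tofacitinib array of mouse 7, whose description names the other drug, the Il7r difference was -1.17 (adjusted p = 0.0391), and without that of mouse 8 it was -0.26. Without the ruxolitinib array of mouse 4, the ruxolitinib difference was -0.59. The DMSO difference was 0.57 without mouse 2 and -0.58 without mouse 3. The second Il7r probe set, 1448576_at, was dim and passed in no group.

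Of the 5 tested genes, 3 were called lower with tofacitinib, where 27.4% of all tested genes were called lower, 3 with ruxolitinib (21.4% of all tested genes) and 3 with DMSO (28.9%). Leaving out Il7, for which the filter favoured a lower call, 2 of 4 were called lower in each group. The genes lower in all 3 groups made up 16.9% of those tested, so such a pattern was common on these arrays. The arrays of Il7, Il4ra and Il15ra did not overlap Day 0, as was so in the lower direction for 18.3% of tested genes with tofacitinib, 24.0% with ruxolitinib and 29.0% with DMSO.

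Promoter sequences, 250 bases before and 50 after the start, were taken from RefSeq (GRCm38.p6) for Il4ra and Il15ra, which were both lower in all day-5 groups, and for Il7r, the 1 gene of the set with a motif match. The table held 7 promoters for 6 of the 9 genes. Il15ra has 2 listed starts. They were searched on both strands for the STAT5-type palindrome TTCNNNGAA, the STAT6-type palindrome with the same ends TTC and GAA and 4 bases between them, and the core of the interferon-stimulated response element, GAAA repeated after 2 bases. The Il7r promoter held 1 TTCNNNGAA match, at bases 109 to 117, shown in capitals. That motif was present in 8.30% of 32851 promoters, the STAT6-type palindrome in 6.95% and the interferon core in 3.44%, and none of the 3 was found in the other 6 promoters. Only 1 match was found in all, so no matches overlapped. A match describes these letters only, and no binding was measured. The sequences are written 5′ to 3′ along the gene: Il4ra at chr7:125552021-125552320 on the + strand, Il15ra at chr2:11705043-11705342 and chr2:11705462-11705761 on the + strand, and Il7r at chr15:9529827-9530126 on the - strand.
Il4ra: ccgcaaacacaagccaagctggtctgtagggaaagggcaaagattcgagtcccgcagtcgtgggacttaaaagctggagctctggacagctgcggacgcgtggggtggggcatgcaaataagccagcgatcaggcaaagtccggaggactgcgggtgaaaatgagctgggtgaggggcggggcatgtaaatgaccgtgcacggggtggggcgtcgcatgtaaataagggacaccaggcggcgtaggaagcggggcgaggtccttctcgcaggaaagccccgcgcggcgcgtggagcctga
Il15ra, upstream start: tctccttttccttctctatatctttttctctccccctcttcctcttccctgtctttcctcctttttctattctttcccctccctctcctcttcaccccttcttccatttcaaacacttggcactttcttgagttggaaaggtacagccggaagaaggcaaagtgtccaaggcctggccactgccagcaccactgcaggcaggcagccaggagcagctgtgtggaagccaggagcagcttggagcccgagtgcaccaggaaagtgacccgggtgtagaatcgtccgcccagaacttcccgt
Il15ra, downstream start: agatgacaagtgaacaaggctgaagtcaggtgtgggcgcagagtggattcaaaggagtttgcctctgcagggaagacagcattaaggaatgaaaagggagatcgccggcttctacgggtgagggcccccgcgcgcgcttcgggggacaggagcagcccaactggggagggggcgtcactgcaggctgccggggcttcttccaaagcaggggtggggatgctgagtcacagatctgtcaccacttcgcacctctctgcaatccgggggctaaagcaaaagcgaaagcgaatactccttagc
Il7r: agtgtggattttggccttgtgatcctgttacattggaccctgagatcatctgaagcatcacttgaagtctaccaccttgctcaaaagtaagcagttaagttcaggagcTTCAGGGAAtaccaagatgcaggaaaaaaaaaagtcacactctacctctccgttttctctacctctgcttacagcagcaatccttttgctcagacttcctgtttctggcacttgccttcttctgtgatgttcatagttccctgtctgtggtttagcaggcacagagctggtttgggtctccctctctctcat

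The remaining receptor chains were dim. Il2rb (Entrez gene 16185, probe set 1448759_at) encodes the signalling chain shared by the IL-2 and IL-15 receptors. It read 2.67, 1.83 and 2.41 in tofacitinib skin, 2.78 and 2.38 in ruxolitinib skin, 2.65 and 2.73 in DMSO skin, and between 2.56 and 3.64 with a median of 3.17 at Day 0. It was at or under the highest control value on 2 of 3 tofacitinib arrays and 1 of 2 ruxolitinib arrays, against 0 of 2 DMSO arrays and 0 of 9 day-0 arrays. Without the filter on low values, over 18194 genes, Il2rb passed as lower with tofacitinib (adjusted p = 0.00572), as did 19.0% of all genes in that fit, and did not pass with ruxolitinib (adjusted p = 0.0965) or DMSO (adjusted p = 0.150). Its tofacitinib mean of 2.30 lay under the highest control value, against 3.18 at Day 0, so no size of that difference is given.

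Il2ra (Entrez gene 16184, probe set 1420692_at) encodes CD25, the chain that gives the IL-2 receptor its high affinity and marks regulatory and activated T cells. It read 2.63, 2.06 and 2.10 in tofacitinib skin, 2.33 and 2.29 in ruxolitinib skin, 2.28 and 2.57 in DMSO skin, and between 1.91 and 2.50 at Day 0. Only 3 of 16 arrays exceeded the highest control value, so no level of Il2ra could be told from background on the other arrays. Il21r (Entrez gene 60504, probe set 1450456_at), which encodes the IL-21 receptor chain, was above the control values on every array. It read 3.32, 3.35 and 3.07 in tofacitinib skin, 3.11 and 3.12 in ruxolitinib skin, 2.94 and 3.07 in DMSO skin, and between 2.80 and 3.16 with a median of 3.03 at Day 0. Without the filter, Il21r was higher with tofacitinib by 0.23 ± 0.087 (adjusted p = 0.0493), as were 18.5% of all genes in that fit, and did not pass with ruxolitinib (0.10, adjusted p = 0.536) or DMSO (-0.03, adjusted p = 0.871). In the RefSeq table, Il2ra and Il15ra are neighbours on chromosome 2, and Il4ra and Il21r on chromosome 7. In both pairs 1 gene was lower in all day-5 groups and the other stayed under the filter.

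The comparison of inhibitor with vehicle asks whether these genes differed on day 5 from skin given the solvent alone for 4 days. Between tofacitinib and DMSO, 0 of the 5 genes passed (0.165% of all tested genes did), and 0 reached an unadjusted p under 0.05. Il7r differed by -0.69 (95% interval -1.94 to 0.56, adjusted p = 0.840) and Il4ra by -0.66 (-1.52 to 0.19, adjusted p = 0.726). The Il7r difference was -0.046 without DMSO mouse 3, -0.25 without tofacitinib mouse 8, -1.16 without tofacitinib mouse 7 and -1.20 without DMSO mouse 2. The Il4ra difference was -0.25 without tofacitinib mouse 8, -0.32 without DMSO mouse 2 and -1.09 without tofacitinib mouse 7. Both sizes thus depended on single arrays. Il7 differed by 0.30 (-0.26 to 0.87), Il15ra by -0.14 (-0.55 to 0.27) and Il15 by -0.0023 (-1.07 to 1.06). The intervals of Il7r and Il4ra include a fall of more than 1 log2 unit, and that of Il15 a change of that size either way. With 3 and 2 arrays, such differences were therefore not excluded.

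Between ruxolitinib and DMSO, again 0 of 5 passed (0.521% of all tested genes did), with 0 at an unadjusted p under 0.05. Il7r differed by -1.15 (95% interval -2.52 to 0.22, adjusted p = 0.408), and both ruxolitinib arrays lay below both DMSO arrays, as was so for 25.5% of tested genes. The Il7r difference was -0.58 without ruxolitinib mouse 4, -0.63 without DMSO mouse 3 and -1.78 without DMSO mouse 2. Il15 differed by -0.30 (-1.46 to 0.87), Il4ra by -0.26 (-1.20 to 0.68), Il7 by 0.14 (-0.48 to 0.76) and Il15ra by -0.03 (-0.48 to 0.42). The interval of Il15ra was the narrowest of the 5 genes. For the mean of both inhibitors minus DMSO, 0 of 5 genes passed (0.935% of all tested genes did), with differences of -0.92 for Il7r, -0.46 for Il4ra, -0.15 for Il15, -0.09 for Il15ra and 0.22 for Il7. Leaving out 1 array gave -1.49 to -0.34 for Il7r, without DMSO mouse 2 and without DMSO mouse 3, and -0.71 to -0.14 for Il4ra, without DMSO mouse 3 and without DMSO mouse 2.

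Tofacitinib and ruxolitinib were set side by side at the same day and schedule, without known doses. None of the 5 genes passed between them (0.0248% of all tested genes did), and 0 reached an unadjusted p under 0.05. The difference, tofacitinib minus ruxolitinib, was 0.46 for Il7r (95% interval -0.79 to 1.71), -0.41 for Il4ra (-1.26 to 0.45), 0.29 for Il15 (-0.77 to 1.36), 0.16 for Il7 (-0.40 to 0.73) and -0.11 for Il15ra (-0.52 to 0.30), with adjusted p values of at least 0.930. These intervals do not show that the compounds act alike. The plot of differences with their intervals gives all 5 genes in both sets of comparisons.

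**Figure D2:**
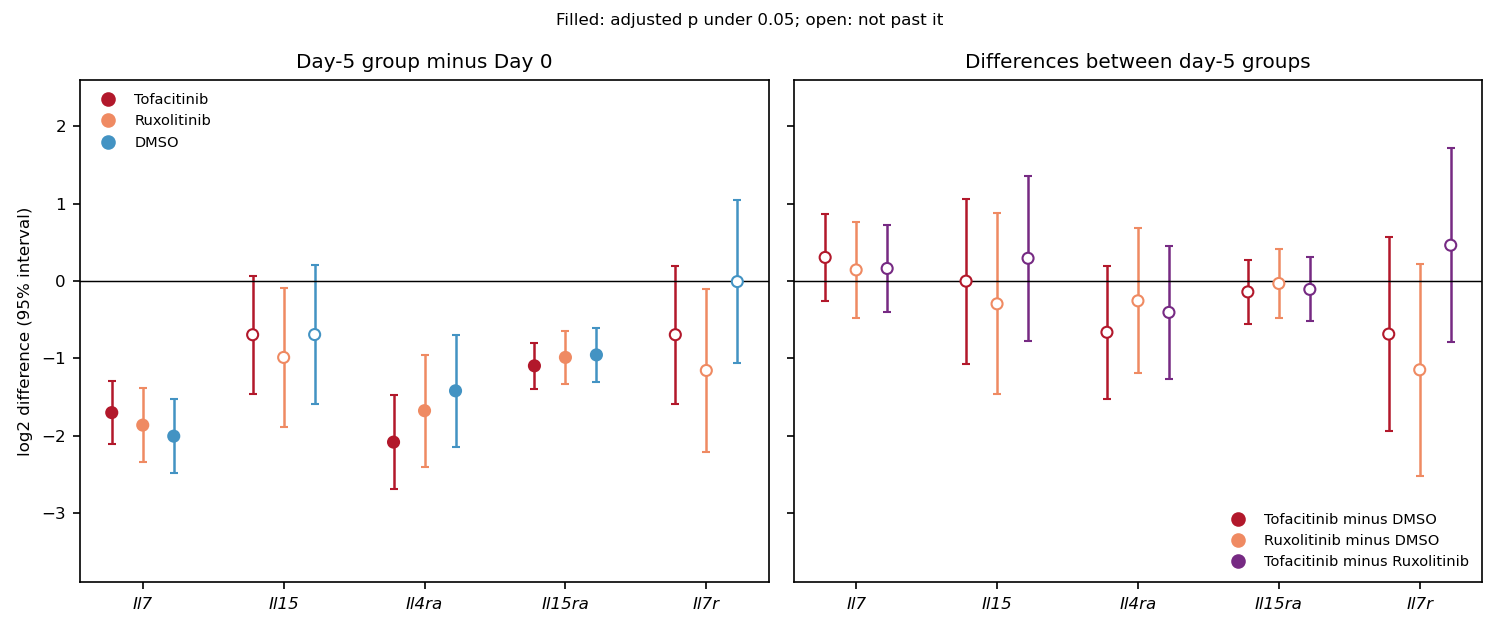
Log2 differences (vertical axis) with 95% intervals for the 5 tested genes. The left panel shows Tofacitinib, Ruxolitinib and DMSO at day 5, each minus Day 0, and the right panel shows the differences between the day-5 groups. Filled points passed an adjusted p under 0.05. Il7, Il4ra and Il15ra are filled in all 3 groups on the left, and no point is filled on the right.

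Change within a mouse was taken from the 7 mice biopsied on both days. Il7 was lower on day 5 in 7 of 7 mice, with changes of -2.30 to -1.27, Il4ra in 7 of 7 (-3.28 to -0.53), Il15ra in 7 of 7 (-1.46 to -0.63), and Il15 in 7 of 7 (-2.08 to -0.03). The ligand Il15 thus had the same sign in every mouse although its groups overlapped. The share of all tested genes lower in 7 of 7 mice was not counted, so these counts do not set the 4 genes apart. Among all tested genes, 16.9% were called lower in all 3 day-5 groups. Il7 was tested only because of its day-0 level. Il7r differed by -0.48, -2.01 and -1.18 in the tofacitinib mice 7, 8 and 9, by -1.10 and -0.43 in the ruxolitinib mice and by -0.10 and 0.01 in the DMSO mice. All 5 inhibitor-treated mice lay below both vehicle mice for Il7r, as was so for 3.66% of tested genes. The limma difference between the arms' changes did not pass, at -1.12 for tofacitinib (adjusted p = 0.895) and -0.44 for ruxolitinib (adjusted p = 0.705) against DMSO. These changes also hold unequal day-0 levels of Il7r. They were 6.88, 6.75 and 6.79 in the tofacitinib mice, 5.54 and 6.03 in the ruxolitinib mice, and 5.75 and 6.78 in the DMSO mice. On day 5 itself, the tofacitinib and DMSO arrays overlapped. Il21r, above the control values on every array, was lower in 2 of 7 mice and was higher in all 3 tofacitinib mice (0.35, 0.34 and 0.27). Changes of Il2rb and Il2ra are not counted. Il2ra was at or under the highest control value on 8 of 9 day-0 and 5 of 7 day-5 arrays. Il2rb was so on 0 of 9 day-0 and 3 of 7 day-5 arrays.

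**Figure D3:**
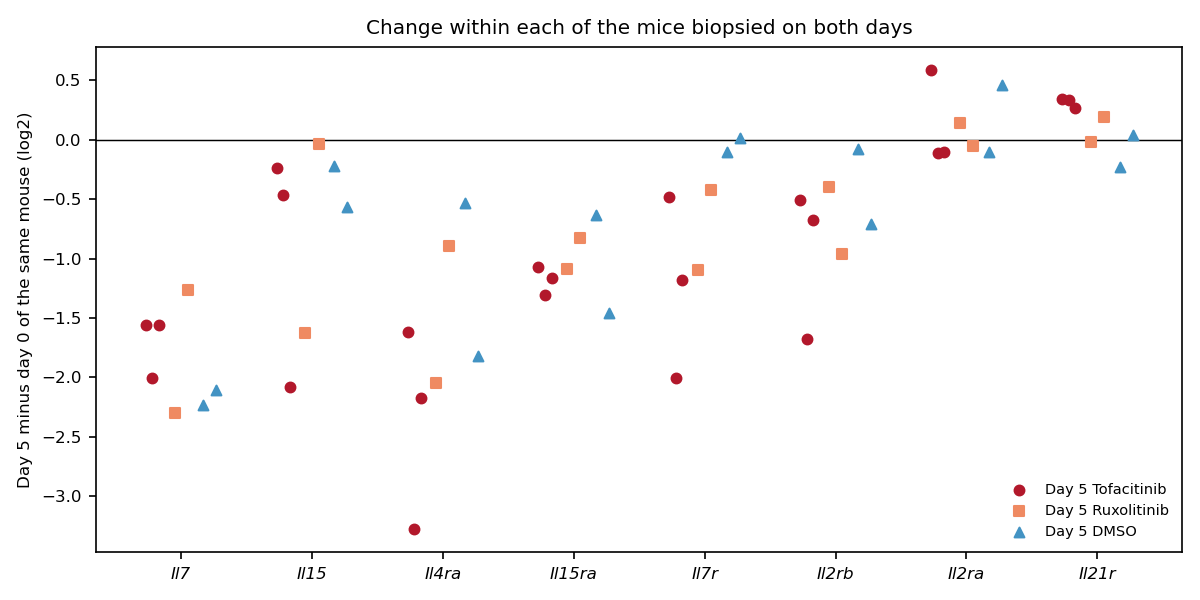
Log2 value on day 5 minus that on day 0 of the same mouse (vertical axis) for the 8 measured genes in the 3 tofacitinib, 2 ruxolitinib and 2 DMSO mice. Each point is a mouse. Il7, Il15, Il4ra and Il15ra lie below 0 in all 7 mice, and the DMSO points of Il7r lie at -0.10 and 0.01. Il2ra and Il2rb were at or near background.

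Other genes of the pathway were counted from 3 lists. Their counts stand beside the shares of all tested genes. With tofacitinib 27.4% were called lower and 22.7% higher, with ruxolitinib 21.4% and 12.5%, and with DMSO 28.9% and 22.2%. The lists are short, and no list was tested against these shares. Of 10 further ligands and receptors, 4 were tested, of which 1 was higher and 2 lower with tofacitinib, 1 higher and 2 lower with ruxolitinib, and 0 higher and 2 lower with DMSO. Il13ra1, the partner of Il4ra in the IL-13 receptor, fell by 1.33 with tofacitinib (adjusted p = 0.000668), by 1.06 with ruxolitinib (adjusted p = 0.0126) and by 1.35 with DMSO (adjusted p = 0.00188). Crlf2, the partner of Il7r in the TSLP receptor, fell by 0.56 with tofacitinib (adjusted p = 0.0162), by 0.64 with ruxolitinib (adjusted p = 0.0270) and by 0.52 with DMSO (adjusted p = 0.0479). Il13ra1 thus moved in the direction of its partner Il4ra. Crlf2 was lower in every group, while its partner Il7r passed in none and differed by -0.01 with DMSO. Tslp, the epithelial ligand of the Crlf2 and Il7r pair, was higher with tofacitinib (1.87, adjusted p = 0.00200) and ruxolitinib (1.46, adjusted p = 0.0304), and its difference with DMSO was 0.88 (adjusted p = 0.138). The Tslp difference between tofacitinib and DMSO was 0.98 and did not pass (adjusted p = 0.707). Il2, Il4, Il9, Il21, Il9r and Il13 did not pass the filter, with a highest value of 2.58 on any array.

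Of 6 kinases and STATs, 5 were tested, of which 1 was higher and 3 lower with tofacitinib, 0 higher and 3 lower with ruxolitinib, and 1 higher and 2 lower with DMSO. Stat6, which acts below Il4ra, fell by 0.77 with tofacitinib (adjusted p = 0.000548), by 0.68 with ruxolitinib (adjusted p = 0.00622) and by 1.09 with DMSO (adjusted p = 0.000135). Stat5a and Stat5b, which act below the IL-7 and IL-15 receptors, moved in opposite directions with tofacitinib and DMSO. Stat5a fell by 1.22 with tofacitinib (adjusted p = 1.48e-05), by 0.96 with ruxolitinib (adjusted p = 0.000649) and by 0.80 with DMSO (adjusted p = 0.00154). Stat5b was higher with tofacitinib (0.49, adjusted p = 0.0183) and DMSO (0.80, adjusted p = 0.00280), with a difference of 0.12 for ruxolitinib (adjusted p = 0.631). Jak3, the kinase of the common gamma chain, did not pass the filter, and its values lay between 2.08 and 2.99. Of 10 feedback and target genes, 7 were tested, with 0 higher and 3 lower in each day-5 group. The 3 were Cish, Ccnd2 and Socs3 with tofacitinib and with ruxolitinib, and Cish, Ccnd2 and Pim1 with DMSO. Socs3, a feedback inhibitor of cytokine receptors, fell by 1.81 with tofacitinib (adjusted p = 5.93e-05) and by 1.85 with ruxolitinib (adjusted p = 0.000314), and its difference with DMSO was -0.43 (adjusted p = 0.235). For both inhibitors minus DMSO, Socs3 differed by -1.40 and did not pass (adjusted p = 0.0550). Ccnd2, a cyclin gene induced by STAT5, fell by 1.12 with tofacitinib (adjusted p = 5.86e-05), by 1.01 with ruxolitinib (adjusted p = 0.000761) and by 1.47 with DMSO (adjusted p = 2.45e-05). No gene of the 3 lists passed in a comparison between day-5 groups.

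Marker lists of the cells that carry or make these proteins moved with the day. The mean of the 6 tested T cell markers lay between 3.93 and 4.70 on the 7 day-5 arrays, against 6.02 and 7.50 at Day 0, with 5 of 6 lower with tofacitinib, 6 of 6 with ruxolitinib and 6 of 6 with DMSO. Of the 16 T cell markers listed, 6 were tested, and Cd4 and Cd28 did not exceed the highest control value on any array. Cd3d, Cd3g, Cd2 and Trat1 stayed under the filter of 4 on every day-5 array, with highest values of 2.93, 3.83, 3.51 and 2.99. They were tested only because of their day-0 levels, which favoured a lower day-5 mean. Cd3e and Thy1 were above the filter on every array. With tofacitinib Cd3e differed by -3.29 and passed, and Thy1 differed by -0.60 and did not. The mean of the 4 tested regulatory T cell markers lay between 6.53 and 7.22 on day-5 arrays, against 8.14 and 9.15 at Day 0. All 4 were lower in each day-5 group. Of the 6 listed, Foxp3 and Tnfrsf9 stayed under the filter, with highest values of 2.88 and 3.02. Ikzf2 and Tnfrsf18 were the brightest of the 4, with day-0 means of 10.99 and 10.03, above the 9.34 of Thy1. Whether this mean reflects regulatory T cells was not tested. In the T cell list, only Cd3e and Thy1 were free of selection by their day-0 levels. Cd3e passed as lower in every day-5 group, and Thy1 passed with ruxolitinib (-0.87) and DMSO (-1.17). The part of the T cell lists in the levels of Il7, Il4ra and Il15ra was not tested. The 8 keratinocyte markers, from the cells that make Il7 and Il15, averaged between 11.1 and 11.6 on day-5 arrays, against 12.1 and 12.5 at Day 0, with 7 lower with tofacitinib, 6 with ruxolitinib and 8 with DMSO, and their part was not tested either.

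The mean of 6 tested Langerhans and dendritic cell markers overlapped between the days, at 7.80 to 8.89 on day-5 arrays, against 8.16 to 9.36 at Day 0, as Il7r and Il15 did. Of these, 2 were lower with tofacitinib, 2 with ruxolitinib and 1 with DMSO. Cd74, the invariant chain of antigen presentation, fell by 0.93 with tofacitinib, by 1.18 with ruxolitinib and by 0.66 with DMSO. H2-Ab1, an antigen-presenting chain, fell by 0.60 with tofacitinib and by 0.87 with ruxolitinib. Cd207, the Langerhans cell lectin, passed in no group. Macrophage markers were higher in every day-5 group (5 of 8 each), as were endothelial markers (6 of 6 each) and fibroblast markers (4 of 6 each). Among all tested genes, 22.7% were called higher with tofacitinib, 12.5% with ruxolitinib and 22.2% with DMSO. Pecam1, Cdh5 and Kdr stayed under the filter of 4 on every day-0 array, with highest values of 3.77, 3.40 and 3.34. These endothelial markers were tested only because of their day-5 levels, which favoured a higher call. Skeletal muscle markers averaged between 11.6 and 12.8 on day-5 arrays, against 9.88 and 10.8 at Day 0, with 6 of 8 higher with tofacitinib, 3 of 8 with ruxolitinib and 5 of 8 with DMSO. Tnnt1 and Myl2 had by far the largest shifts in this mean. Group means of Tnnt1 were 8.40 with tofacitinib, 7.74 with ruxolitinib and 9.17 with DMSO, against 3.53 at Day 0. Those of Myl2 were 8.53, 7.40 and 8.44, against 3.14. The other markers moved less, at most from 12.1 to 13.3 for Actn3 with DMSO. The part of these lists in the levels of Il7, Il4ra and Il15ra was not tested. Only 1 of 6 natural killer cell markers and 0 of 4 B cell markers were tested, and Ncr1, Eomes and Ms4a1 did not exceed the highest control value on any array. Mast cell markers were higher for 5 of 5 tested with tofacitinib, 5 of 5 with ruxolitinib and 1 of 5 with DMSO. Their median difference from Day 0 was 2.02 with tofacitinib, 1.90 with ruxolitinib and 1.25 with DMSO. Between either inhibitor and DMSO, 0 of 5 passed. Kit stayed under the filter of 4 at Day 0 (highest 3.75) and with DMSO (highest 3.09). It was tested only because of the inhibitor arrays, which favoured a higher call there.

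**Figure D4:**
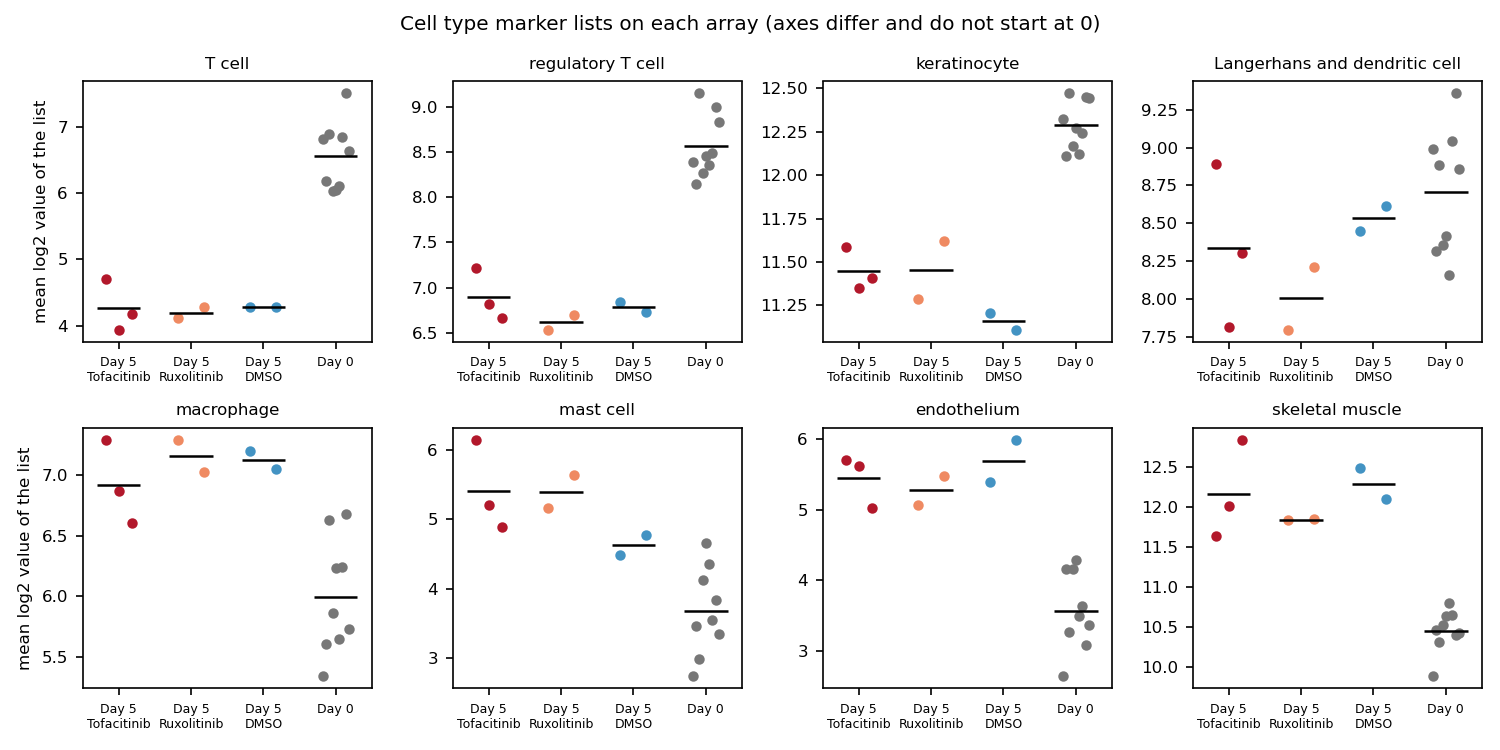
Mean log2 value of the tested markers of each cell type list (vertical axis, which differs between panels and does not start at 0) on every Day 5 Tofacitinib, Day 5 Ruxolitinib, Day 5 DMSO and Day 0 array. Points are arrays and bars group means. T cell, regulatory T cell and keratinocyte means on day 5 lie below all day-0 arrays, and endothelium and skeletal muscle means above them. In the T cell list, Cd3d, Cd3g, Cd2 and Trat1 were tested only because of their day-0 levels. The regulatory T cell mean does not include Foxp3 and Tnfrsf9, which stayed under the filter.

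Genes with the most similar pattern were found by the lower of 2 Pearson correlations, over the 9 day-0 arrays and over the 7 day-5 arrays, so that the difference between days did not enter. These are descriptions from few arrays, chosen from all tested genes, and the arrays of a day share their tissue content. Il7r was most like Ctss (0.85 at day 0 and 0.83 at day 5), which encodes the antigen-processing protease cathepsin S, then Itgax (0.82 and 0.82), which encodes the dendritic cell integrin CD11c, and Tiprl (0.86 and 0.81). Itgax was also 1 of the Langerhans and dendritic cell markers, whose mean correlated with Il7r at 0.78 at day 0 and 0.93 at day 5, while the T cell mean correlated with it at 0.82 and 0.70. Il4ra was most like Plet1 (0.82 and 0.85), Twsg1 (0.85 and 0.80) and S1pr2 (0.83 and 0.77), and Il15ra like Atf7ip (0.81 and 0.76), Thumpd3 (0.74 and 0.78) and Trpc4 (0.71 and 0.71). Among the ligands, Il7 was most like Apcdd1 (0.83 and 0.78), Serpinh1 (0.78 and 0.81) and Npr3 (0.72 and 0.92), and Il15 like Arhgap27 (0.77 and 0.77), Tmem165 (0.80 and 0.76) and Tmsb4x (0.75 and 0.78).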

How the data were processed

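Total RNA of whole dorsal skin was amplified, labelled with biotin and hybridised to 16 arrays, per the labels. The authors deposited 1 log2 value per probe set and array. GCRMA, which corrects background, normalizes and summarises probes, produced them, per the submitters' processing notes. Its version and whether arrays were normalized jointly are not given in the sources used.

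Probe sets above a log2 value of 4 on 2 or more arrays were retained. Each gene was represented by its brightest retained probe set (12087 genes). All were fitted with limma 3.58.1 in R 4.3.3: 4 group means, the mouse as a random block (consensus correlation 0.0982), empirical Bayes, and Benjamini-Hochberg adjustment over all genes within each of 7 comparisons. Calls needed an adjusted p under 0.05. The script was tested on simulated data. The labels pair biopsies by mouse. Same-mouse deviations correlated between -0.183 and 0.178, with 2 of 7 pairs above 0.1. Genes named as most alike had the 3 highest values of the lower of 2 correlations among all tested genes. The number of arrays limits precision. The genes, lists and tests were chosen with earlier results of these data known.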

Additional observations from a re-analysis of the deposited data

How the results depend on the processing

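For the 9 results that passed the test (Il7, Il4ra and Il15ra against Day 0), 162 values under other settings were computed, and 156 kept both sign and call. Il15ra passed in every one of them. Il7, with 17 of these values in each group, passed too, though it was not tested with the filter at 6. It had been tested only because of its day-0 level, which favoured a lower call, so its passes add no support. They include its second probe set, whose day-5 means lay under the highest control value. Il4ra was lost with the replicate block of mice in DMSO (-1.18, adjusted p = 0.102) and ruxolitinib skin (-1.47, adjusted p = 0.0947), without DMSO mouse 3 (-1.17) and in all 3 groups with its probe set at background, which gave 0.15 for DMSO. Il7r with tofacitinib passed with the replicate block (-1.22), a separate day-0 mean per arm (-1.22) and without mouse 7 (-1.17). The fixed replicate block called 4 members with tofacitinib, 2 with ruxolitinib and 2 with DMSO, and changed no other call. Without the filter, 5 of 8 members were called with tofacitinib, with Il7, Il4ra, Il15ra and Il2rb lower and Il21r higher. In that fit 19.0% of all genes were called lower and 18.5% higher. The tofacitinib mean of Il2rb lay under the highest control value. Over all genes, the fixed replicate block called 4768 with tofacitinib (6055 without it), 1324 with ruxolitinib (4104) and 3701 with DMSO (6178), and 0 between day-5 groups. Over all alternatives, genes called ranged from 3969 (without tofacitinib mouse 9) to 6819 with tofacitinib, 1324 to 4470 with ruxolitinib (1999 without mouse 6, 2315 without mouse 4) and 3470 (without mouse 2) to 6791 with DMSO (4001 without mouse 3). Between day-5 groups the ranges were 0 to 126 for tofacitinib minus DMSO (20 as reported), 0 to 264 for ruxolitinib minus DMSO (63), 0 to 374 for both inhibitors minus DMSO (113) and 0 to 9 for tofacitinib minus ruxolitinib (3). No alternative called a member between day-5 groups.

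Signs that reversed belonged to results that had not passed, apart from the Il4ra probe set at background, and no reversed value passed. Il7r in DMSO skin against Day 0 was 0.12 after quantile normalization, 0.37 when the untreated arrays of mice 1, 3, 8 and 9 were left out and 0.02 when that of mouse 1 alone was (both chosen after seeing the data). Tofacitinib minus DMSO gave Il15 at 0.056 without the replicate block and at 0.056 with only the groups compared, 0.020 without the filter, 0.028 as the mean of probe sets and 0.0015 without day-0 mouse 1, and second probe sets gave Il4ra at 0.017 and Il7r at 0.065. Ruxolitinib minus DMSO gave Il15 at 0.066 and Il15ra at 0.12 with separate day-0 means, Il15ra at 0.086 with the replicate block, and second probe sets gave Il15ra at 0.0062 and Il7 at -0.13. The mean of both inhibitors minus DMSO gave Il7 at -0.052 and Il7r at 0.016 with second probe sets (that of Il7 was at background on day 5). Tofacitinib minus ruxolitinib gave Il15 at -0.098 and Il7r at -0.46 with the replicate block, at -0.23 and -0.68 when each arm had its own day-0 mean, and Il4ra at 0.085 and 0.17 with its other probe sets. The cause was not tested.

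Leaving out 1 array at a time gave Il7r -0.58 to 0.57 for DMSO against Day 0. For ruxolitinib minus DMSO it gave Il15 -0.84 to 0.23, Il15ra -0.10 to 0.012, Il4ra -0.53 to 0.029 and Il7 -0.11 to 0.42, and for tofacitinib minus DMSO Il15 -0.34 to 0.50. The mean of both inhibitors minus DMSO gave Il15 -0.44 to 0.18 and Il7 -0.023 to 0.42. Tofacitinib minus ruxolitinib gave Il15 -0.27 to 0.80, Il4ra -0.82 to 0.0087, Il7 -0.11 to 0.42 and Il7r -0.14 to 0.94.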
